A study of Mus musculus with 16 samples.

Results

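The Bcl2 family genes described here are 10 of the 55414 genes in 16 count files: Mcl1, Bcl2, Bcl2l1 and Bcl2l2, which encode survival proteins, and Bcl2l11, Bad, Bid, Bak1, Bmf and Bik, which encode death proteins. Each was found as the row whose Ensembl identifier maps to its symbol, with no use of its measured values. All 10 were among the 25081 genes that passed a filter on low counts, although Bmf and Bik had at most 50 counts in any file. The compared groups were cells labelled Nat10-deficient (Nat10-/- in the titles; labelled-deficient below) and wild type (WT) cells, at 0, 1, 3 and 5 h, with 2 files for each genotype and time, which the labels call biological replicates. All were mouse bone marrow cells, expanded from lineage-depleted marrow with stem cell factor and thrombopoietin and treated with 5 µM actinomycin D, an inhibitor of transcription, and long-term haematopoietic stem cells (LT-HSCs) were sorted at each time, per the labels. Nat10 is the acetyltransferase that places the ac4C mark on RNA, and the study followed polyadenylated RNA over time to measure mRNA half-lives. Titles give the cells as 32D, a cultured myeloid line, whereas the cell type field gives LT-HSCs, and which is right was not settled here. Strain, age, any Cre driver and any pooling of animals are not given in the sources used here.

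Several facts of the libraries touch every result. Total counts ran from 9142413 to 17274128 a file. Both files of a group carry 1 alignment name in their headers, in 8 of 8 groups, and the chi-square per degree of freedom between the files of a group was 1.43 to 1.81, so the p-values measure only the spread between these files, which may be technical. Fits on summed files, with 1 library for each genotype and time, are therefore given beside them. Nat10 mRNA was not lower in labelled-deficient libraries at 0 h, with 110 and 113 counts scaled to the gene total of the library (CPM) against 103 and 103 in WT. At 1 h it had 1357 and 1433 of 14721501 and 14695289 gene counts in labelled-deficient libraries. In WT it then had 1219 and 1004 of 12772970 and 9759746. At 3 h it stood at 94.5 and 96.8 CPM in labelled-deficient libraries against 36.4 and 31.1 in WT, and at 5 h at 147 and 161 CPM against 16.7 and 15.4 in WT, so this transcript goes against the label at 3 and 5 h. These CPM are without the TMM factors given below. ERCC spike-in RNA, added in equal amounts per the labels, took 0.0221% to 0.129% of counts in labelled-deficient libraries and 1.79% to 2.92% in WT. Immunoglobulin genes took 6.46% and 6.42% of gene counts (0 h), 9.04% and 9.01% (1 h), 24.6% and 24.4% (3 h) and 3.92% and 3.89% (5 h) in labelled-deficient libraries, against 3.63% and 3.61% (0 h), 25.7% and 25.4% (1 h), 49.6% and 49.3% (3 h) and 59.7% and 59.2% (5 h) in WT. A list of 13 HSC markers summed to 1227 to 1231 CPM at 0 h in labelled-deficient libraries and 3079 to 3130 CPM in WT, with all 13 detected in both. At 3 h the order was the other way round, at 863 to 906 CPM in labelled-deficient libraries and 784 to 795 CPM in WT. A list of 13 plasma cell markers summed to 36987 to 235207 CPM in labelled-deficient libraries and 34898 to 557318 CPM in WT, and Mzb1 alone of its genes was at 0, in WT at 0 h. At 0 h its sum was higher in labelled-deficient libraries, at 60664 to 61025 CPM against 34898 to 35019 CPM in WT. Lists of 5 eosinophil and 8 mast cell and basophil markers summed to 1356 to 1370 and 487 to 498 CPM at 0 h in labelled-deficient libraries, against 254 to 259 and 168 to 176 CPM in WT. At 1 h the mast cell and basophil list stood the other way, at 1065 to 1092 CPM in labelled-deficient libraries and 1211 to 1231 CPM in WT. A list of 7 erythroid markers summed to 6929 to 6990 CPM at 5 h in labelled-deficient libraries, against 710 to 711 CPM in WT. All genes of these 3 lists were detected at those times, save Cma1 of the mast cell and basophil list in WT at 1 h. Marker lists of other cell types are not reported here, and the part of the markers in the results was not tested. In such bulk RNA, fewer cells of a type and less RNA per cell cannot be told apart.

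Mitochondrial cell death is decided by binding among these proteins. Mcl-1, Bcl-2, Bcl-xL (from Bcl2l1) and Bcl-w (from Bcl2l2) hold the pore-forming proteins Bak and Bax in check, and the BH3-only proteins Bim (from Bcl2l11), Bad, Bid, Bmf and Bik relieve that check or activate the pore formers directly. Mcl-1 is required for the survival of haematopoietic stem cells in mice, and both its mRNA and its protein are known for rapid turnover. Bcl-xL is known for keeping erythroid cells and platelets alive, and Bim for the death of blood cells deprived of cytokines.

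Levels of different genes were compared per exonic length, as CPM per kilobase of exon (RPKM). At 0 h, Mcl1 (ENSMUSG00000038612, chromosome 3, 95566099 to 95570487, GRCm39) had the highest level of the 10 in both genotypes. It stood at 66.5 ± 0.36 RPKM in labelled-deficient libraries and 87.3 ± 0.67 RPKM in WT (mean ± SD, n = 2 files here and below). Bcl2l1 (chromosome 2, 152622588 to 152673648) came next, at 37.5 ± 0.80 RPKM in labelled-deficient libraries and 27.4 ± 0.56 RPKM in WT. The Mcl1 level was 1.77 times that of Bcl2l1 in labelled-deficient libraries and 3.19 times in WT. Bid (chromosome 6, 120868891 to 120893814), whose protein is cleaved by caspase-8 to link death receptors to mitochondria, had the highest level of the death genes. It stood at 29.0 ± 0.15 RPKM in labelled-deficient libraries and 27.2 ± 0.60 RPKM in WT, and in WT its level did not differ from that of Bcl2l1 beyond the spread of the files.

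The order then parted between the genotypes. In the libraries labelled Nat10-deficient Bcl2l11 (chromosome 2, 127967958 to 128004467) came next, at 8.70 ± 0.16 RPKM, before Bad (chromosome 19, 6919229 to 6929267) at 7.23 ± 0.19 RPKM. In WT this pair stood the other way round, with Bcl2l11 at 4.76 ± 0.20 RPKM and Bad at 7.49 ± 0.095 RPKM. Bak1 (chromosome 17, 27238784 to 27247983), which encodes a pore former, stood at 3.96 ± 0.60 RPKM in labelled-deficient libraries, where it overlapped with Bcl2 at 3.76 ± 0.18 RPKM. In WT, Bak1 was at 2.45 ± 0.26 RPKM and Bcl2 (chromosome 1, 106465908 to 106642004) at 4.23 ± 0.10 RPKM. Bcl2l2 (chromosome 14, 55120834 to 55125691) was the lowest of the survival genes, at 1.35 ± 0.097 RPKM in labelled-deficient libraries and 1.02 ± 0.019 RPKM in WT. Bmf (chromosome 2, 118359238 to 118380168) and Bik (chromosome 15, 83411063 to 83428835) stood at 0.123 ± 0.034 and 0.387 ± 0.020 RPKM in labelled-deficient libraries and at 0.723 ± 0.017 and 0.632 ± 0.24 RPKM in WT. Levels may be understated where a gene shares exonic bases with others, which holds for 6.09% of those of Bcl2, 13.3% of Bcl2l2, 20.5% of Bad, 17.7% of Bid and 25.5% of Bak1, since a fragment that overlaps several genes is not assigned under the default of the counting tool.

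**Figure D1:**
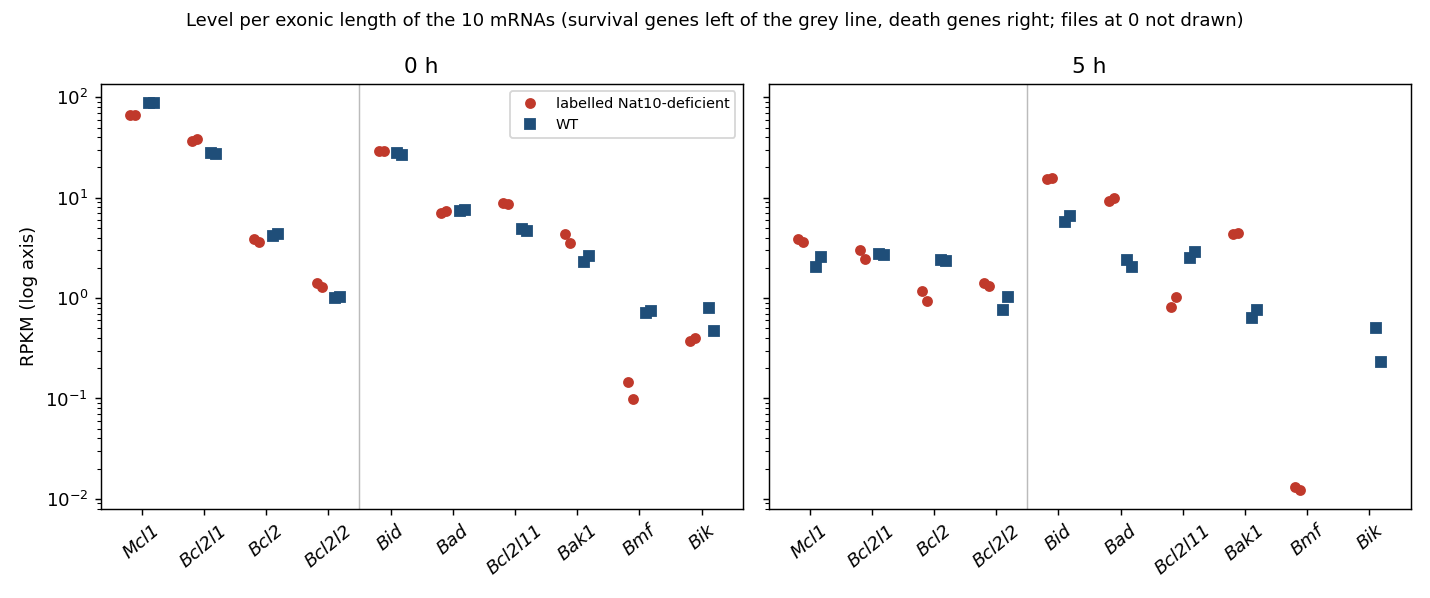
Level per exonic length (RPKM, log axis) of the 10 genes at 0 h (left panel) and 5 h (right panel); each point is 1 file, red circles are libraries labelled Nat10-deficient and blue squares are WT. Mcl1 leads at 0 h at 66.5 and 87.3 RPKM, and Bid leads at 5 h at 15.6 and 6.12 RPKM; files with 0 counts have no point.

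The make-up of the 10 genes, which leave out Bax and other family genes, changed over the 5 h in both genotypes. The survival genes held 68.7% and 69.0% of the summed RPKM of the 10 genes at 0 h in the 2 labelled-deficient files, against 73.2% and 73.7% in WT. At 5 h they held 24.0% and 21.03% in labelled-deficient files and 40.4% and 40.9% in WT. Mcl1 made up 40.7% and 43.4% of the survival genes' sum at 5 h in labelled-deficient files and 25.8% and 29.8% in WT, where its level of 2.31 ± 0.35 RPKM overlapped with that of Bcl2 at 2.36 ± 0.037 RPKM. Bid led the 10 genes in both genotypes at 5 h, at 15.6 ± 0.34 RPKM in labelled-deficient libraries and 6.12 ± 0.57 RPKM in WT. The shares are ratios within a library and do not depend on how libraries are scaled.

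Genotypes were compared at each time after TMM scaling, which sets the bulk of genes equal between libraries, so each difference is relative to other genes. TMM-scaled CPM are given here, since the 5 h libraries of WT had factors of 0.434 and 0.439, against 1.07 and 1.06 for those labelled Nat10-deficient. At 0 h, 5 of the 10 members were higher and 2 lower in labelled-deficient libraries at an adjusted p under 0.05 (edgeR quasi-likelihood test), where 36.0% of all tested genes were called higher and 24.2% lower. In the fit of summed files no gene of the 25081 passed at 0 h by edgeR, 1236 had an unadjusted p under 0.05, and of the members Bcl2l11 had an unadjusted p under 0.05.

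Among the survival genes, Bcl2l1 had 136 and 141 TMM-scaled CPM at 0 h in labelled-deficient files, against 88.4 and 85.0 in WT. The difference was log2 0.67 ± 0.047 (SE, adjusted p = 2.91e-32). Mcl1 had 184 and 183 TMM-scaled CPM in labelled-deficient files and 206 and 206 in WT, a difference of log2 -0.17 ± 0.039 (adjusted p = 5.97e-05). Bcl2l2 was higher by log2 0.63 ± 0.21 (adjusted p = 0.00588), on 5.11 and 4.62 TMM-scaled CPM in labelled-deficient files and 3.11 and 3.17 in WT, and it missed the threshold without replicate 1 of the labelled-deficient files (log2 0.56, adjusted p = 0.0543). Bcl2, the founding member of the family, differed by log2 0.05 ± 0.084 (adjusted p = 0.620) at 0 h.

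Of the death genes, Bcl2l11 had 57.0 and 55.6 TMM-scaled CPM at 0 h in labelled-deficient files, against 27.3 and 25.5 in WT, a difference of log2 1.09 ± 0.076 (adjusted p = 1.64e-32). Bak1 had 8.50 and 6.87 TMM-scaled CPM in labelled-deficient files and 3.79 and 4.35 in WT, which gave log2 0.92 ± 0.18 (adjusted p = 2.56e-06). Bid, at 82.6 and 83.3 TMM-scaled CPM in labelled-deficient files and 68.2 and 65.5 in WT, differed by log2 0.31 ± 0.052 (adjusted p = 4.11e-08). Bmf was lower by log2 -2.32 ± 0.42 (adjusted p = 4.36e-07), on 13 and 9 counts in labelled-deficient files and 50 and 47 counts in WT. Bad and Bik did not pass, at log2 0.17 ± 0.11 and -0.49 ± 0.57. On plain library sizes 3 members were higher (Bcl2l1, Bcl2l11 and Bak1) and 2 lower (Mcl1 and Bmf), where 27.2% and 32.2% of tested genes were called, and under ERCC scaling all 10 were higher, where 87.3% of tested genes were.

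From 1 h on, the Bcl2l1 difference stood on the other side under TMM scaling, but not at 5 h on plain library sizes (log2 0.01) nor under ERCC scaling (log2 5.30 at 1 h and 4.36 at 5 h), which moved the median of all genes at the 4 times to log2 6.24, 5.64, 5.19 and 5.62. Bcl2l1 had 61.1 and 59.6 TMM-scaled CPM at 1 h in labelled-deficient files and 79.9 and 83.9 in WT, and differed by log2 -0.44 ± 0.056 at 1 h (adjusted p = 8.78e-13), -0.37 ± 0.085 at 3 h and -1.28 ± 0.12 at 5 h (adjusted p = 4.88e-21). Bcl2l11 differed by log2 -0.04 ± 0.098 at 1 h (adjusted p = 0.760), by -0.70 ± 0.13 (3 h) and by -2.82 ± 0.13 (5 h, adjusted p = 7.26e-59). At 5 h it had 6.12 and 7.69 TMM-scaled CPM in labelled-deficient files, against 45.9 and 52.1 in WT. Bcl2 likewise differed at each later time, by log2 -0.68 ± 0.092 (1 h), -0.39 ± 0.10 (3 h) and -2.46 ± 0.12 (5 h), and at 5 h it had 9.98 and 8.0 TMM-scaled CPM in labelled-deficient files and 50.3 and 48.6 in WT. At 5 h Bcl2 and Bcl2l11 stayed lower on plain library sizes (log2 -1.17 and -1.52), where the median of all genes was log2 1.38, and were higher under ERCC scaling (log2 3.18 and 2.83). Under TMM scaling both genes stood higher at 5 h than at 0 h in WT, where immunoglobulin genes and the plasma cell markers were also highest. With immunoglobulin genes left out of the scaling the differences at 5 h were log2 -2.11 for Bcl2 and -2.46 for Bcl2l11, and the part of the plasma cell markers in them was not tested.

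The differences of Mcl1 at the later times depended on the scaling. Mcl1 had 12.2 and 11.6 TMM-scaled CPM at 5 h in labelled-deficient files and 16.2 and 19.9 in WT, a difference of log2 -0.58 ± 0.13 (adjusted p = 4.78e-05), with -0.07 ± 0.052 at 1 h and -0.10 ± 0.081 at 3 h. Without replicate 2 of WT at 5 h it was log2 -0.28 (adjusted p = 0.153), and on plain library sizes, an alternative chosen after seeing the data, it was log2 0.71 (adjusted p = 2.09e-07). In CPM without TMM factors Mcl1 had 13.1 and 12.4 in labelled-deficient files against 7.03 and 8.72 in WT at 5 h.

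Bad and Bak1 were higher at each later time and Bid at 1 and 3 h, under TMM scaling, on plain library sizes and under ERCC scaling. Bak1 had 10.4 and 8.65 TMM-scaled CPM at 1 h in labelled-deficient files and 2.44 and 1.42 in WT, and its difference was log2 2.26 ± 0.22 at 1 h (adjusted p = 9.74e-20), 1.86 ± 0.28 at 3 h and 1.37 ± 0.25 at 5 h. These values of Bak1 rest on few counts in WT, 38 and 17 (1 h), 17 and 15 (3 h) and 21 and 20 (5 h). Bad was higher by log2 0.78 ± 0.12 at 1 h, 1.04 ± 0.17 at 3 h and 0.82 ± 0.15 at 5 h (adjusted p = 4.72e-07 at 5 h), with 22.2 and 23.9 TMM-scaled CPM at 5 h in labelled-deficient files and 14.2 and 11.8 in WT. Bid was higher by log2 0.68 ± 0.056 at 1 h and 0.85 ± 0.079 at 3 h, and differed by 0.07 ± 0.081 at 5 h (adjusted p = 0.475). The call for Bid at 5 h turned on single files: without replicate 2 of WT at 5 h the difference was log2 0.32 (adjusted p = 0.00444), and without either WT file of 3 h it was 0.24. Bcl2l2 differed by log2 -1.61 ± 0.24 at 1 h, 0.38 ± 0.25 at 3 h (adjusted p = 0.163) and -0.65 ± 0.23 at 5 h (adjusted p = 0.00892), a value that was -0.28 (adjusted p = 0.438) without replicate 2 of WT at 5 h and -0.48 without either WT file of 3 h (adjusted p = 0.0556 and 0.0557).

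In all, 3 members were higher and 4 lower at 1 h, where 32.4% of tested genes were called higher and 31.8% lower. At 3 h, 3 were higher and 3 lower, with 30.4% and 37.0% of tested genes called, and on plain library sizes 6 were higher and 1 lower, with 37.1% and 30.7% called. At 5 h, 2 were higher and 6 lower, with 34.2% and 30.1% of tested genes called. One of the 6 was Bik, which had 0 counts in both labelled-deficient files and 11 and 4 counts in WT, and was at least 6.06-fold lower in CPM with the zero group held at 3 counts over its files. On plain library sizes the split at 5 h was 5 higher and 3 lower, where 55.5% of tested genes were called higher and 14.9% lower. Scaled on ERCC counts, 9 members were higher and 0 lower at 5 h, by edgeR with and without adjustment, where 84.2% of tested genes were called higher.

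**Figure D2:**
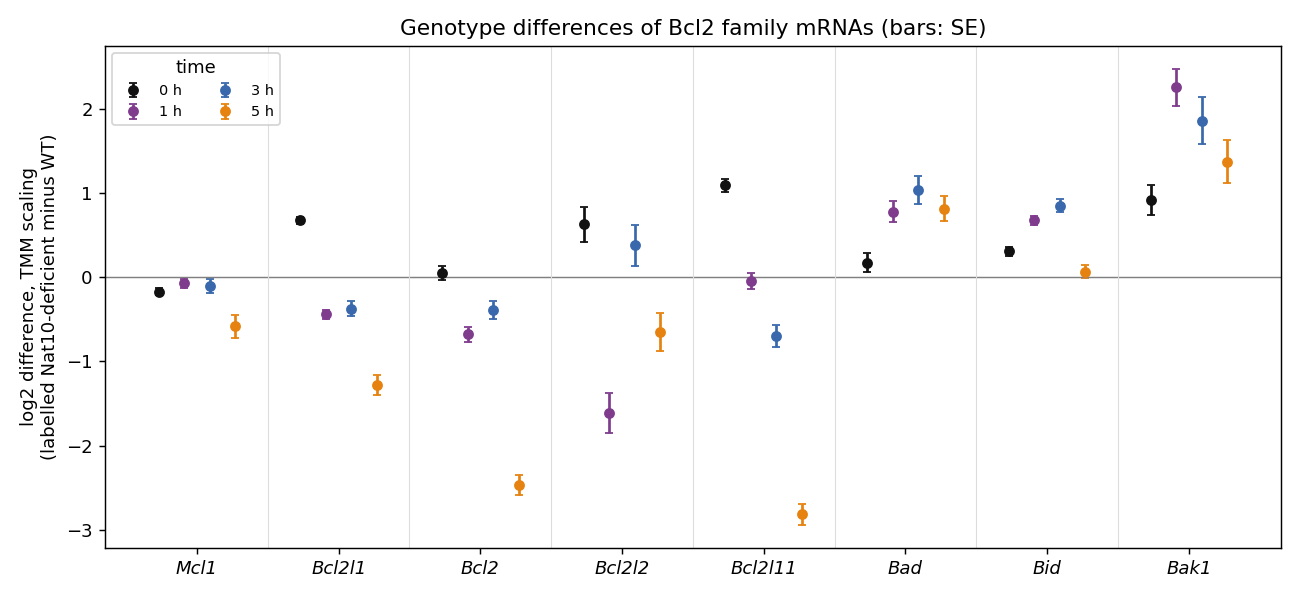
Differences (log2, libraries labelled Nat10-deficient minus WT, TMM scaling) of 8 members at 0, 1, 3 and 5 h, with bars of 1 SE. Bcl2l1 and Bcl2l11 lie above 0 at 0 h (0.67 and 1.09) and below it at 5 h (-1.28 and -2.82), while Bak1 lies above 0 at all 4 times.

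Averaged over the 4 times, Bak1 (log2 1.603 ± 0.12), Bad (0.70 ± 0.070) and Bid (0.48 ± 0.034) were higher in labelled-deficient libraries. Bcl2 (-0.87 ± 0.051), Bcl2l11 (-0.62 ± 0.055), Bcl2l1 (-0.35 ± 0.041), Bcl2l2 (-0.31 ± 0.12) and Mcl1 (-0.23 ± 0.042) were lower. Of all tested genes 31.6% were called higher and 21.6% lower. On plain library sizes 4 members were higher, Mcl1 among them (log2 0.12), and 2 lower, where 42.0% and 14.1% of tested genes were called, and under ERCC scaling 9 were higher, where 71.5% were. Bcl2l2 missed the threshold without replicate 1 of the labelled-deficient files of 3 h (log2 -0.25), either WT file of 3 h (-0.29 and -0.25) or replicate 2 of WT at 5 h (-0.22). Without both WT libraries of 5 h, 3 members were higher and 2 lower, where 31.8% and 23.8% of tested genes were called. Bcl2l11 then stood at log2 0.12 (adjusted p = 0.0862). In the fit of summed files 0 of the 10 passed (edgeR), where 0.0319% of tested genes were called higher and 0.0359% lower (17 in all), and Bad and Bak1 had unadjusted p under 0.05, with an adjusted p of 0.152 for Bak1. DESeq2 on the unsummed files called 3 members higher and 6 lower, where it called 6622 of 25081 tested genes higher and 7539 lower.

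**Figure D3:**
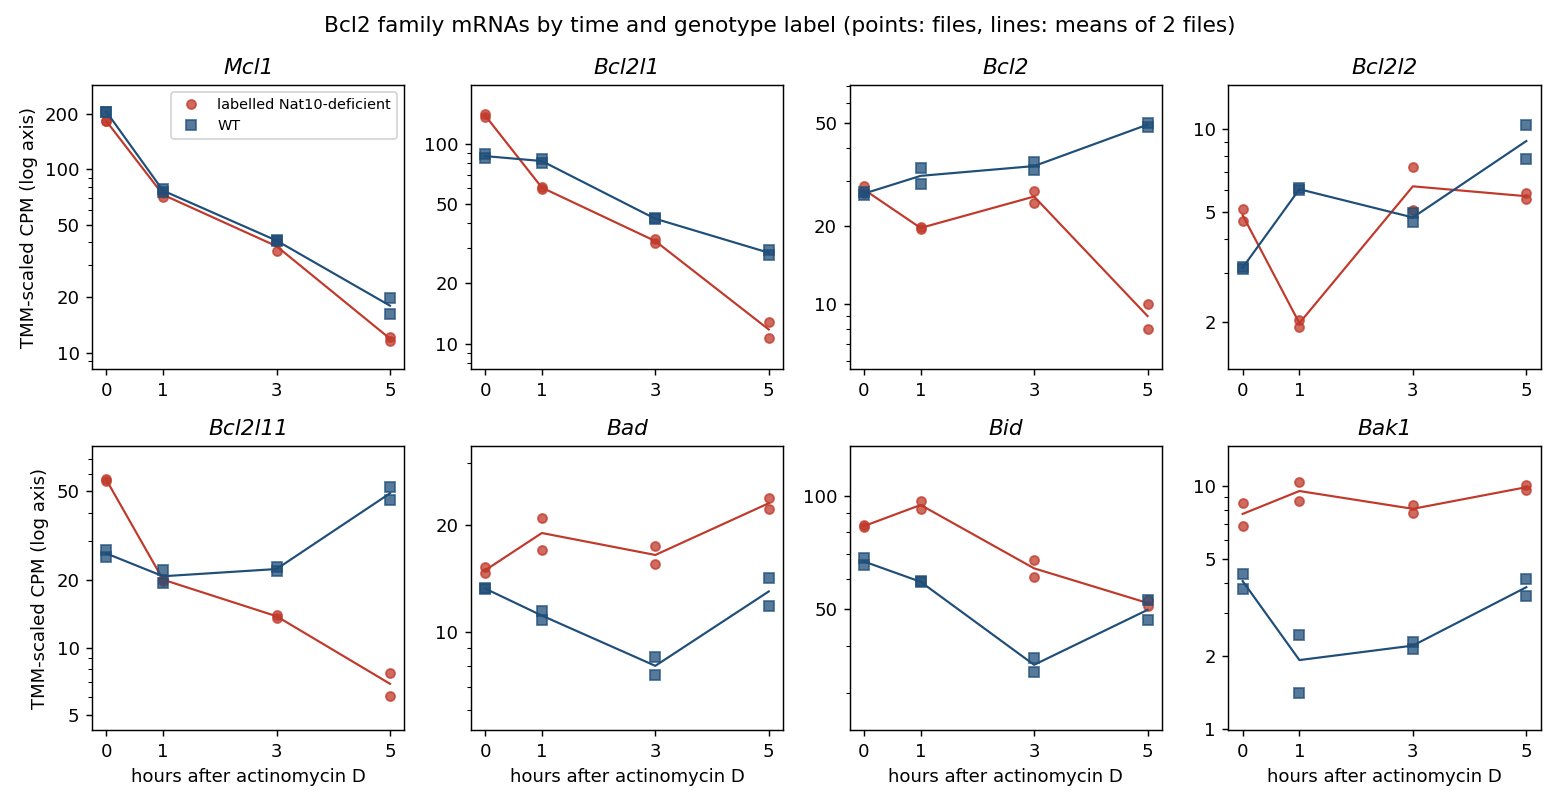
TMM-scaled CPM (log axis) of 8 members against hours after actinomycin D; points are files, lines join the means of 2 files, red circles are libraries labelled Nat10-deficient and blue squares are WT. Mcl1 falls in both, to 11.9 and 18.04 at 5 h, whereas Bcl2l11 reaches 6.90 at 5 h in labelled-deficient libraries and 49.0 in WT.

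For the course of each mRNA a slope was fitted, in log2 per hour across the 4 times, relative to ERCC counts. Each time is a separate sort, and a slope also holds any change in the mix of cells. Each half-life below is that of the fitted line, also where the fall was not steady. Its SE comes from the spread between files and does not cover departures from the line. All 10 members fell in labelled-deficient libraries and all 10 in WT (edgeR, adjusted p under 0.05), where 71.3% and 57.4% of tested genes were called falling, so the fall as such was shared with most genes. The median slope of the members was -0.89 per hour in labelled-deficient libraries and -0.44 in WT, beside -0.48 and -0.36 over all tested genes. The medians of the members include Bmf and Bik, whose slopes rest on few counts.

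Mcl1 fell fastest of the 8 members other than Bmf and Bik, in both genotypes. It had 1007 and 1024 counts per 1000 ERCC counts at 0 h in labelled-deficient files and 10.1 and 9.99 at 5 h. In WT it had 15.9 and 16.5 counts per 1000 ERCC counts at 0 h and 0.272 and 0.338 at 5 h. The slopes were -1.22 ± 0.013 in labelled-deficient libraries and -1.05 ± 0.015 in WT, which correspond to half-lives of 0.817 ± 0.0085 h and 0.953 ± 0.014 h. In the fit of summed files Mcl1 passed in labelled-deficient libraries (adjusted p = 7.0e-09) and in WT (adjusted p = 4.33e-07). Under TMM scaling, which removes the fall that most genes share, Mcl1 still fell, at -0.74 and -0.66 per hour, and passed in the summed fit at adjusted p = 0.0131 in labelled-deficient libraries and 0.00995 in WT. Against ERCC counts, 15.6% of the 0 h level of Mcl1 was left after 1 h in labelled-deficient libraries and 19.3% in WT. In CPM the order of the genotypes was the other way round, with 40.8% left in labelled-deficient libraries and 31.4% in WT. Later values against ERCC counts were 5.64% (3 h) and 0.99% (5 h) in labelled-deficient libraries and 8.64% and 1.88% in WT. The fall of Mcl1 was thus steepest in the first hour, and its half-lives are not those of a steady fall.

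Bcl2l1 came next of those 8. Its slope was -1.16 ± 0.014 in labelled-deficient libraries and -0.74 ± 0.015 in WT, with half-lives of 0.865 ± 0.010 h and 1.35 ± 0.028 h. Under TMM scaling the half-lives were 1.495 ± 0.030 h in labelled-deficient libraries and 2.90 ± 0.13 h in WT. It too passed in the summed fit under ERCC scaling (adjusted p = 1.53e-08 in labelled-deficient libraries and 0.000225 in WT) and under TMM scaling (adjusted p = 0.0131 and 0.0433). Mcl1 and Bcl2l1 were the only members to pass in both genotypes in the summed fit under TMM scaling, of 3 that passed in labelled-deficient libraries and 2 in WT. Under that scaling and fit 1.14% of tested genes were called falling in labelled-deficient libraries and 1.89% in WT, and 0.0518% and 0.73% rising.

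Among the 8 members other than Bmf and Bik, Bcl2l11 and Bcl2 had the widest gaps in slope between the genotypes. Bcl2l11 fell at -1.03 ± 0.020 per hour in labelled-deficient libraries and at -0.21 ± 0.019 in WT, with half-lives of 0.972 ± 0.019 h and 4.73 ± 0.43 h. In WT its level against ERCC counts dropped in the first hour and then stayed, with 2.11 and 2.04 counts per 1000 ERCC counts (0 h), 0.793 and 0.913 (1 h), 0.751 and 0.791 (3 h) and 0.770 and 0.888 (5 h). Its WT half-life is therefore that of a fitted line and not of a steady fall. In the files labelled Nat10-deficient the Bcl2l11 level went on falling, with 312 and 312 (0 h), 44.5 and 43.2 (1 h), 20.7 and 20.96 (3 h) and 5.06 and 6.62 (5 h). Bcl2 fell at -0.75 ± 0.020 per hour in labelled-deficient libraries and at -0.23 ± 0.019 in WT, with half-lives of 1.33 ± 0.035 h and 4.34 ± 0.35 h. Its fall was not steady in labelled-deficient libraries either, with 27.9% (1 h), 25.5% (3 h) and 4.92% (5 h) of the 0 h level left against ERCC counts. Under TMM scaling the WT slopes of Bcl2l11 and Bcl2 were positive, at 0.18 and 0.16 per hour, while those in labelled-deficient libraries stayed negative, at -0.54 and -0.27.

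Bid fell at -0.65 ± 0.011 per hour in labelled-deficient libraries and -0.51 ± 0.014 in WT, with half-lives of 1.54 ± 0.026 h and 1.98 ± 0.055 h. Under TMM scaling its slopes were -0.16 and -0.11 per hour, with half-lives of 6.22 ± 0.40 h in labelled-deficient libraries and 8.93 ± 1.2 h in WT. Bad had slopes of -0.39 ± 0.020 in labelled-deficient libraries and -0.41 ± 0.029 in WT, and Bak1 of -0.44 ± 0.029 and -0.37 ± 0.053. Bcl2l2 had slopes of -0.32 ± 0.038 in labelled-deficient libraries and -0.16 ± 0.044 in WT. Under TMM scaling Bcl2l2, Bad and Bak1 had slopes of 0.17, 0.09 and 0.05 per hour in labelled-deficient libraries. Bmf and Bik passed on few counts. Bmf had slopes of -1.09 ± 0.15 in labelled-deficient libraries and -1.61 ± 0.15 in WT, and Bik of -2.71 ± 0.31 and -0.47 ± 0.13. Bik had 0 counts at 3 and 5 h in labelled-deficient files and at 3 h in WT, so no half-life is given for them. In the fit of summed files 6 members passed in labelled-deficient libraries (Mcl1, Bcl2, Bcl2l1, Bcl2l11, Bid and Bik), where 35.4% of tested genes were called falling and 0.012% rising, and 5 in WT (Mcl1, Bcl2l1, Bad, Bid and Bmf), where 26.7% were called falling and 0.845% rising. Under TMM scaling of the separate files 7 members fell and 2 rose (Bcl2l2 and Bad) in labelled-deficient libraries, where 31.8% and 29.0% of tested genes were called, and 4 fell and 3 rose (Bcl2, Bcl2l2 and Bcl2l11) in WT, where 31.2% and 28.1% were.

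**Figure D4:**
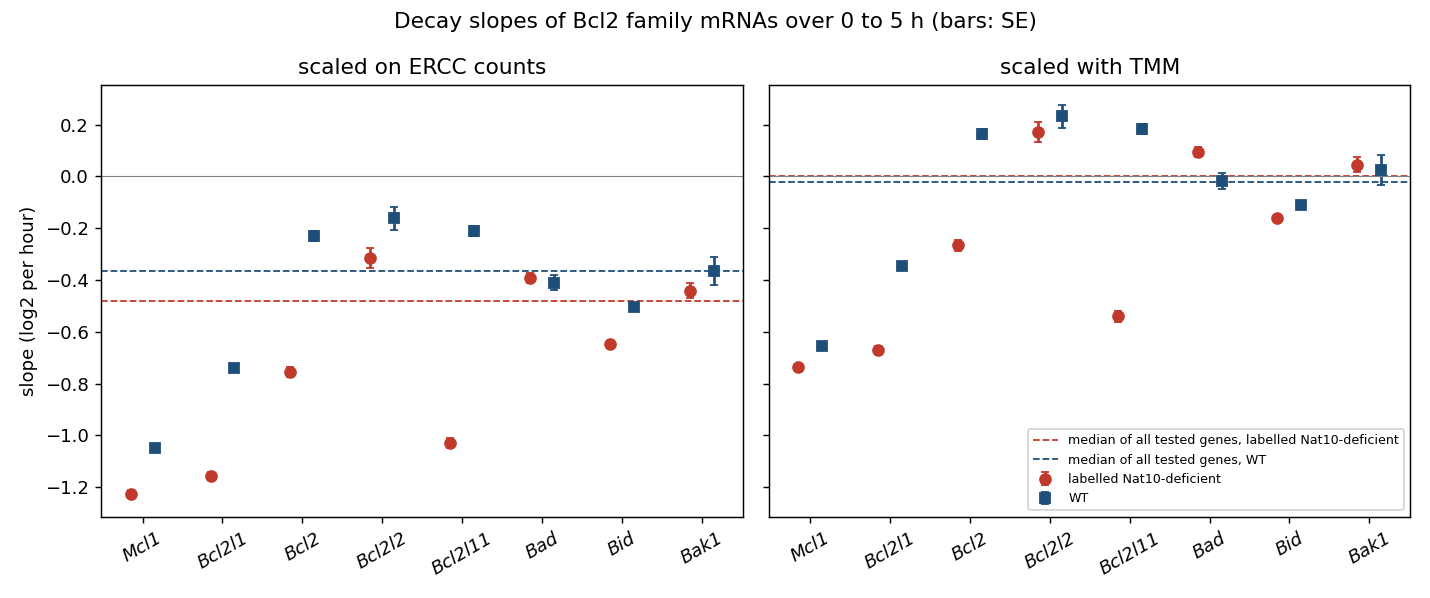
Slopes (log2 per hour over 0 to 5 h, bars of 1 SE) of 8 members under ERCC scaling (left) and TMM scaling (right), with libraries labelled Nat10-deficient as red circles and WT as blue squares; dashed lines are the medians of all tested genes (-0.48 and -0.36 under ERCC scaling). Mcl1 and Bcl2l1 lie below the medians in both panels, and of these 8 Bcl2l11 and Bcl2 show the widest gaps between the genotypes.

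The difference of the slopes between the genotypes was tested as an interaction. Under ERCC scaling 6 members fell faster in labelled-deficient libraries than in WT and 0 fell slower by edgeR, with the same 0 at an unadjusted p under 0.05 and by DESeq2, where 32.1% of tested genes were called lower and 15.7% higher. The slope difference was log2 -0.82 ± 0.029 per hour for Bcl2l11 (adjusted p = 1.11e-170), -0.52 ± 0.029 for Bcl2, -0.42 ± 0.025 for Bcl2l1, -0.18 ± 0.027 for Mcl1, -0.16 ± 0.059 for Bcl2l2 and -0.14 ± 0.019 for Bid. The median over all tested genes was -0.096 per hour. Of these genes 42.7% lay below Mcl1, 44.3% below Bcl2l2 and 45.7% below Bid. In the fit of summed files Bcl2l11 alone passed (-0.85 ± 0.20 per hour, adjusted p = 0.0365), where 0.239% of tested genes (60) were called lower and 0.0399% higher. With summed files and TMM scaling together, an alternative chosen after seeing the data, its difference was -0.74 ± 0.14 per hour with an adjusted p of 0.526, and no gene passed by edgeR, while Bcl2, Bcl2l1 and Bcl2l11 had unadjusted p under 0.05. Without both WT libraries of 5 h, 4 members were lower and Bad was higher, where 38.7% and 16.5% of tested genes were called. Bid then stood at 0.02 per hour (adjusted p = 0.605). With TMM scaling 5 members were lower and Bad was higher, where 24.2% and 24.5% of tested genes were called. Without replicate 2 of WT at 5 h the Bcl2l2 difference was -0.12 per hour (adjusted p = 0.177).

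The first hour already held differences between the genotypes. In that hour the immunoglobulin share of WT went from 3.63% and 3.61% to 25.7% and 25.4%. That of labelled-deficient libraries went from 6.46% and 6.42% to 9.04% and 9.01%, and the part of this in the differences was not tested. From 0 to 1 h, under ERCC scaling, 8 members fell in labelled-deficient libraries and 8 in WT, where 68.6% and 55.7% of tested genes were called falling and 4.8% and 16% rising. Under TMM scaling 5 fell and 2 rose in labelled-deficient libraries, where 26.7% and 23.2% of tested genes were called, and 4 fell and 2 rose in WT, where 31.6% and 29.7% were. Bcl2l1 changed by log2 -2.55 ± 0.055 in labelled-deficient libraries and -1.03 ± 0.058 in WT, and Bcl2l11 by -2.83 ± 0.085 and -1.29 ± 0.098. Bcl2l2 changed by log2 -2.65 ± 0.23 in labelled-deficient libraries and by 0.00 ± 0.22 in WT. Mcl1 fell in both, by log2 -2.68 ± 0.051 in labelled-deficient libraries and -2.38 ± 0.052 in WT. Bak1 went the other way, with log2 -1.03 ± 0.15 in labelled-deficient libraries and -1.96 ± 0.25 in WT. The differences of the first hour were lower for 5 members and higher for Bak1, where 38.3% of tested genes were called lower and 12.6% higher, and that of Bak1 was log2 0.65 (adjusted p = 0.100) without replicate 2 of WT at 1 h. Over all tested genes the median of this difference was log2 -0.44 under ERCC scaling, and 54.3% of them lay below Mcl1. Under TMM scaling the first hour difference was lower for 4 members and higher for 3, where 25.9% and 23.9% of tested genes were called, and that of Mcl1 was log2 0.10 (adjusted p = 0.221).

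AU-rich elements in the 3′ UTR, built from ATTTA pentamers, are known to mark short-lived mRNAs. They were counted on the sense strand of the longest 3′ UTR of each gene in GENCODE M21 (GRCm38, an older build than that of the files). The pentamer is in 69.3% of 16795 tested protein-coding genes, at a median of 1.35 per kilobase, and the nonamer TTATTTATT, which holds a pentamer, in 8.23%. Mcl1 has 8 pentamers in 2353 bases, and 16.6% of genes with a 3′ UTR of similar length have as many. Bcl2 has 15 in 5086 bases, and 17.4% of genes of similar length have at least as many. It is the only member with a nonamer, at 2 places, while 21.6% of genes of similar length have one. Bcl2l11 has 6 in 4218 bases, and 64.6% of genes of similar length have at least as many. Bcl2l1, which fell fastest after Mcl1 among the 8 members other than Bmf and Bik, has 1 in 1477 bases. At least as many are in 84.4% of genes of similar length. Bcl2l2 has 2, Bad, Bmf and Bik have 1 each, and Bid and Bak1 have none. The sequences chosen are both nonamer sites of Bcl2 (capitals), for the mRNA that holds most such elements, and for the fastest-falling pair of those 8 a cluster of 2 neighbouring Mcl1 pentamers and the single Bcl2l1 pentamer (capitals), each 5′ to 3′ in the mRNA sense.
Bcl2 nonamer 1 (chr1:106542997-106543021, minus strand, GRCm38): aaaaagatTTATTTATTtaagacag
Bcl2 nonamer 2 (chr1:106539918-106539942, minus strand, GRCm38): gcatattcTTATTTATTacatctaa
Mcl1 pentamer 1 (chr3:95662582-95662602, plus strand, GRCm38): acctgtgtATTTAtccttgat
Mcl1 pentamer 2 (chr3:95662607-95662627, plus strand, GRCm38): gtttgcttATTTAtgtttaac
Bcl2l1 pentamer (chr2:152780896-152780916, minus strand, GRCm38): gtgtctgtATTTAtgtgtgag

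Other genes of the death pathway were read from lists, with TMM scaling for the genotypes. Under ERCC scaling 12 of 13, 17 of 17 and 14 of 14 tested genes of the lists were higher and 0 lower at 0 h. Of all tested genes 87.3% were called higher and 0.00797% lower under that scaling. In the fit of summed files 0 of the list genes passed at 0 h, where 0 of all tested genes did. Of 13 tested of 15 other Bcl2 family genes, 6 were higher and 1 lower at 0 h, where 36.0% of all tested genes were called higher and 24.2% lower, with a median of log2 0.31 beside 0.10 over all genes. Bbc3 (Puma), a BH3-only gene induced by p53, was higher by log2 1.43 ± 0.18, and Bax, the other pore former, by 0.38 ± 0.049. Over the mean of the times 5 were higher and 6 lower, where 31.6% and 21.6% of tested genes were called, with Bax at log2 0.75 ± 0.027 and Pmaip1 (Noxa), whose protein binds Mcl-1, at -0.34 ± 0.042. The sign for Pmaip1 changed with time, at log2 -0.85 ± 0.082 (1 h), 0.63 ± 0.082 (3 h) and -1.57 ± 0.081 (5 h). In CPM without TMM factors it had 38.4 and 33.7 at 5 h in labelled-deficient files and 41.5 and 46.3 in WT. Pmaip1 rose in the first hour in WT (log2 0.30 ± 0.091) under ERCC scaling, and its slope was lower in labelled-deficient libraries by -0.35 ± 0.023 per hour.

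Of 17 tested caspase, apoptosome and inhibitor genes of 18 listed, 9 were higher and 4 lower at 0 h, beside 36.0% and 24.2% of tested genes, with a median of log2 0.28. Cycs, which encodes the cytochrome c released through the Bax and Bak pore, was higher by log2 1.00 ± 0.089 at 0 h, and Diablo, which encodes an antagonist of caspase inhibitors, was lower by -0.70 ± 0.14. Cflar, the inhibitor of caspase-8 activation, was lower by log2 -0.68 ± 0.042 over the mean of the times. All 17 fell in both genotypes under ERCC scaling, where 71.3% of tested genes were called falling in labelled-deficient libraries and 57.4% in WT. Under TMM scaling 8 fell and 6 rose in labelled-deficient libraries, where 31.8% and 29.0% of tested genes were called, and 12 fell and 3 rose in WT, where 31.2% and 28.1% were.

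Of 14 upstream regulators, 7 were higher and 5 lower at 0 h, with 36.0% and 24.2% of tested genes called and a median of log2 0.05. Trp53, which induces Bbc3 and Pmaip1, was higher by log2 0.64 ± 0.029. Kit, the stem cell factor receptor, was lower by log2 -0.33 ± 0.028. At 5 h, 11 were higher and 3 lower, with 34.2% and 30.1% of tested genes called, among them Trp53 at log2 1.65 ± 0.036 and Fbxw7, a ubiquitin ligase that targets Mcl-1, at -2.48 ± 0.26. Kit is also among the HSC markers above.

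Across the 8 group means of log2 TMM-scaled CPM, the 3 genes most like Mcl1 of 8076 candidates were Fbxo46 (Pearson r = 0.993), the glucose transporter gene Slc2a1 (0.988) and Spata2 (0.988). Those most like Bcl2 were the leukocyte surface gene Ptprc (0.986), Cytip (0.982) and Zc3h12d (0.981). Those most like Bcl2l11 were the interferon receptor gene Ifnar2 (0.983), Nfkbie (0.966) and Hivep1 (0.953). These are likenesses over 8 points that share libraries, given without a test.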

How the data were processed

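Polyadenylated RNA of 16 libraries was counted by the authors. The deposited values are counts, whole fragments per gene from featureCounts 1.6.3 (paired, exons by gene, no strand) per the file headers. STAR, DESeq2 and the build GRCm39 appear in the submitters' processing notes. Gene length, deposited beside them as another value per the file headers, was used for RPKM. Of 55506 entries 92 were ERCC spike-ins, kept out of gene library sizes, and 94.0% of identifiers had a symbol. Sequences came from GENCODE M21.

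Groups came from the labels. edgeR 4.0.16 (R 4.3.3, quasi-likelihood test, a mean for each of 8 groups, TMM for genotypes, ERCC counts for courses, threshold 0.05, Benjamini-Hochberg over 25081 genes kept by filterByExpr) was tested on simulated data first. Each SE was derived from the F statistic, as |log2|/√F. DESeq2 1.42.0, other scalings, no filter, a replicate block, summed files and leaving out files were alternatives. A summed fit leaves 4 residual degrees of freedom for 0 h and slopes and 3 for the mean. The median biological coefficient of variation was 0.135 between files and 0.925 between summed libraries. Counts without molecular identifiers cover counting error only.

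The members, lists and tests were chosen with earlier results of these data known. Named genes are the 10 members, Nat10, up to 3 genes per list, direction and comparison with the smallest p, and for Mcl1, Bcl2 and Bcl2l11 the 3 most correlated genes with mean log2 CPM of at least 3 (prior count 2), of which a selection is given. Some genes that the rule names are not reported here.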

Additional observations from a re-analysis of the deposited data

Results flagged for a closer look

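The courses of 6 members differed between the genotypes by the test of the difference itself. The slope of the labelled-deficient libraries minus that of WT, under ERCC scaling, was log2 -0.82 per hour for Bcl2l11, -0.52 for Bcl2, -0.42 for Bcl2l1, -0.18 for Mcl1, -0.16 for Bcl2l2 and -0.14 for Bid. In the fit of summed files Bcl2l11 alone of these passed. The change from 0 to 1 h differed likewise for 6 members, by log2 -2.65 for Bcl2l2, -1.54 for Bcl2l11, -1.52 for Bcl2l1, -1.14 for Bcl2, -0.31 for Mcl1 and 0.93 for Bak1. Over all tested genes the median was log2 -0.096 per hour for the slope difference and -0.44 for the first hour difference. Most genes thus shared the direction, and 54.3% of tested genes had a lower first hour difference than Mcl1. ERCC counts per library ran from 3819 to 19021 in labelled-deficient libraries and from 204836 to 384621 in WT, and the part of this gap in the differences was not tested.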

How the results depend on the processing

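The replicate block changed none of 110 member results and none of 22 counts. Same-numbered files of different groups had deviations that correlated at r = -0.0134 to 0.0407 over 28 pairs of groups, so the numbers were not taken as pairs. Leaving out single files kept 1739 member results, ended 15 calls and added 6. The number of members called ranged from 6 to 7 at 0 h, 6 to 7 at 1 h, 6 to 8 at 3 h, 7 to 8 at 5 h and 7 to 8 for the mean. It was 10 for both slopes, 5 to 6 for their difference, 8 and 7 to 8 for the first hour of labelled-deficient libraries and WT, and 5 to 6 for its difference. Testing with no filter kept 108 of 110 member results, and DESeq2 ended 1 call and added 4. Summing the files left 0 members and 0 genes called at 0 h, 0 and 17 for the mean, 6 and 8891 for the labelled-deficient slope, 5 and 6897 for the WT slope and 1 and 70 for the slope difference. With TMM as well, the numbers were 3 and 299, 2 and 656, and 0 and 0. Without both WT libraries of 5 h, 5 members and 13947 genes were called for the mean. Without immunoglobulin genes in TMM, 5 members and 15298 genes were called in the WT first hour. Plain library sizes and summed files with TMM were chosen after seeing the data. The following log2 values changed sign, where the other scaling is ERCC for genotypes and TMM for courses. For the genotype difference at 0 h, the other scaling gave Mcl1 5.97, Bmf 3.80, Bik 5.62, and summed files gave Bcl2l2 -0.056. For the genotype difference at 1 h, the other scaling gave Mcl1 5.66, Bcl2 5.06, Bcl2l1 5.30, Bcl2l2 4.11, Bcl2l11 5.69, Bmf 4.28, Bik 5.68. For the genotype difference at 3 h, the other scaling gave Mcl1 5.35, Bcl2 5.07, Bcl2l1 5.08, Bcl2l11 4.76, and plain library sizes gave Mcl1 0.19. For the genotype difference at 5 h, the other scaling gave Mcl1 5.06, Bcl2 3.18, Bcl2l1 4.36, Bcl2l2 4.99, Bcl2l11 2.83, and plain library sizes gave Mcl1 0.71, Bcl2l1 0.0086, Bcl2l2 0.64. For the genotype mean, the other scaling gave Mcl1 5.51, Bcl2 4.87, Bcl2l1 5.39, Bcl2l2 5.42, Bcl2l11 5.13, and plain library sizes gave Mcl1 0.12, Bcl2l1 0.00095, Bcl2l2 0.042, and no WT libraries of 5 h gave Bcl2l11 0.12. For the labelled-deficient slope, DESeq2 size factors gave Bcl2l2 0.21, Bad 0.13, Bak1 0.082, and the other scaling gave Bcl2l2 0.17, Bad 0.095, Bak1 0.045, and TMM without immunoglobulin genes gave Bcl2l2 0.22, Bad 0.14, Bak1 0.094, and summed files with TMM gave Bcl2l2 0.14, Bad 0.10, Bak1 0.045. For the WT slope, DESeq2 size factors gave Bcl2 0.20, Bcl2l2 0.27, Bcl2l11 0.22, Bad 0.018, Bak1 0.061, and the other scaling gave Bcl2 0.16, Bcl2l2 0.23, Bcl2l11 0.18, Bak1 0.026, and TMM without immunoglobulin genes gave Bcl2 0.16, Bcl2l2 0.23, Bcl2l11 0.18, Bak1 0.024, and summed files with TMM gave Bcl2 0.16, Bcl2l2 0.22, Bcl2l11 0.18, Bak1 0.011, Bik 0.12. For the slope difference, TMM without immunoglobulin genes gave Bid 0.0018, and no WT libraries of 5 h gave Bid 0.023. For the labelled-deficient first hour, DESeq2 size factors gave Bad 0.38, Bid 0.22, Bak1 0.35, and the other scaling gave Bad 0.35, Bid 0.19, Bak1 0.31, and TMM without immunoglobulin genes gave Bad 0.42, Bid 0.26, Bak1 0.38. For the WT first hour, DESeq2 size factors gave Bcl2 0.29, Bmf 0.081, and the other scaling gave Bcl2 0.24, Bmf 0.032, and TMM without immunoglobulin genes gave Bcl2 0.31, Bmf 0.11. For the first hour difference, DESeq2 size factors gave Mcl1 0.083, Bid 0.35, and the other scaling gave Mcl1 0.10, Bid 0.37, and TMM without immunoglobulin genes gave Mcl1 0.094, Bid 0.36. The cause of these changes was not tested. Bmf and Bik, with few counts, carry the least precise values.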
